A study of Mus musculus with 6 samples.

Results

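The 10 genes described here mark the stem cell zone at the base of the colonic crypt or are induced there by Wnt signalling. They are *Lgr5*, *Ascl2*, *Smoc2*, *Axin2*, *Sox9*, *Lrig1*, *Rnf43*, *Znrf3*, *Ephb2* and *Ephb3*. They were chosen by gene symbol, and all 10 were found among the 17778 gene symbols of the deposited expression file. Colon RNA came from 3 obesity-prone (OP) mice and 3 obesity-resistant (OR) mice, each sequenced as a library of its own. All 6 were male wild-type (WT) C57BL/6J mice aged 21 weeks, which had eaten a high-fat diet with 60% fat for 16 weeks. The groups share strain, genotype and diet, and they differ by how much weight the animals put on. OP mice were taken from the top of the ranking by weight gain and OR mice from its bottom, so the groups are selected animals and not a treatment and its control. How the 3 animals of each group were picked for sequencing, and which stretch of the colon was taken, is not given in the sources used here.

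The colonic epithelium is renewed from stem cells at the bottom of the crypts. Wnt proteins bind Frizzled and LRP receptors on these cells, β-catenin then accumulates and joins TCF/LEF factors in the nucleus, and their target genes are transcribed. R-spondins strengthen the signal by binding LGR receptors and removing RNF43 and ZNRF3, ubiquitin ligases that take Frizzled receptors off the cell surface. As cells move up the crypt, Wnt target genes are switched off and absorptive or secretory genes come on.

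The RefSeq promoter table (build GRCm38.p6) held 7 windows for 6 of these genes, namely *Axin2*, *Ascl2*, *Ephb2*, *Ephb3*, *Lrig1* and *Rnf43*, the last with 2 windows. *Lgr5*, *Smoc2*, *Sox9* and *Znrf3* had no entry. The expression file names genes by symbol only, so these positions belong to the table and not to the authors' alignment. The 250 bases before the transcription start are shown for 3 of the genes, as the regulatory sequence of a Wnt feedback gene, of a stem cell transcription factor and of an Eph receptor. They lie at chr11:108920099-108920348 on the plus strand (*Axin2*), chr7:142969265-142969514 on the minus strand (*Ascl2*) and chr16:21204545-21204794 on the plus strand (*Ephb3*). Each reads 5′ to 3′ along the gene, and capitals mark GC boxes (GGGCGG, or CCGCCC on the other strand).

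Axin2: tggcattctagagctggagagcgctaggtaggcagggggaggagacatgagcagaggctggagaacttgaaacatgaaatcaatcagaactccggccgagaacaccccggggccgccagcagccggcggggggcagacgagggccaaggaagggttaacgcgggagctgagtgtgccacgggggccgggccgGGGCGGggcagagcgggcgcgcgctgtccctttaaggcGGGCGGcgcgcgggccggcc

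Ascl2: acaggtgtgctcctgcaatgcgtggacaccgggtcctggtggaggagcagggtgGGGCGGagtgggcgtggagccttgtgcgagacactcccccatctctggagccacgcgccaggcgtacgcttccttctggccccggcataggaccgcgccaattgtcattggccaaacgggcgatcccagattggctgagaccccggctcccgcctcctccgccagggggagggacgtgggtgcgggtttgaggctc

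Ephb3: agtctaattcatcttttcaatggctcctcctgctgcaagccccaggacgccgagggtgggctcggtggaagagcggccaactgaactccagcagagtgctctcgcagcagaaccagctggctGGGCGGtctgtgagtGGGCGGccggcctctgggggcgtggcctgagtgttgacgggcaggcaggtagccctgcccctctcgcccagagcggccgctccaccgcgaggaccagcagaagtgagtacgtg

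A GC box was present in 4 of the 7 windows, those of *Axin2*, *Ascl2*, *Ephb3* and *Lrig1*, and in 32.7% of the 32851 windows of the table. The TCF/LEF core CTTTGA, searched on both strands as CTTTGA and TCAAAG with no overlap between the motifs, was in 0 of the 7 windows and in 13.8% of all windows. With so few windows, 2 of them from *Rnf43*, a count of 0 does not set these genes apart from all windows. Sites outside the windows, or with other letters, were not searched. The bases G and C made up 69.2% of the *Axin2* window, 67.6% of that of *Ascl2* and 65.6% of that of *Ephb3*, against a median of 52.4% over all windows. The share was 71.6% for *Lrig1* and 68.4% for *Ephb2*, but 44.4% and 45.2% in the 2 *Rnf43* windows, below that median. For the *Ephb2* window alone, bases shortly after the start were not found in a transcript of the gene, so its position is less certain.

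Expression is given as FPKM, a fragment count scaled by transcript length and by library, which is a level per length and so can be set side by side between genes. Read totals cannot be taken from FPKM, so sequencing depth and counting error are unknown. One library stood apart from the others. OP mouse 1 had the lowest value of the 6 mice in 54.1% of the 13520 genes that entered the test, against 5.21% to 17.2% for the other mice, and its scaling factor by median of ratios was 0.809, against 0.984 to 1.10. After that scaling it was lowest in 26.8% of genes. The log2 fold changes of the 10 genes, and the calls made in other genes, are therefore also given without OP mouse 1. The label of the tissue was checked against its markers: *Epcam*, an adhesion protein of epithelial cells, had between 935 and 1188 FPKM in the 6 mice, *Car1*, a carbonic anhydrase of colonocytes, between 1054 and 15723, and *Lct*, the lactase of the small intestine, between 0.02 and 0.05. *Fabp6*, a bile acid carrier of the ileum, ranged from 1.03 FPKM in OP mouse 2 to 74.19 FPKM in OR mouse 1. Of other small intestine markers, *Lyz1* had between 4.37 and 21.07 FPKM and *Sis* between 0.08 and 10.06 FPKM. *Epcam*, *Lct*, *Fabp6*, *Lyz1* and *Sis* were picked for this check after their values were seen.

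All 10 genes were detected in every mouse and all passed the filter on low values, set at 0.5 FPKM in 3 or more of the mice. None passed a test for a difference between OP and OR mice. The values of the groups overlapped in 10 of 10 genes, whereas 8.44% of all genes tested had groups that did not overlap. The study's thresholds were a fold change from 1.2 upwards or from 0.83 downwards, with a q-value below 0.2. By limma-trend on log2(FPKM + 1), 0 of the 10 genes passed them, and 3 of all genes tested did, or 0.0222%. The paper applied these thresholds to a count test, DESeq2, which was not run here, and reported more genes than these 3. At an unadjusted p below 0.05 the count among the 10 genes was also 0 in limma-trend, while 3.53% of all genes were lower in OP mice at that level and 0.503% were higher. What set the mice apart in these genes was OP mouse 1, which had the lowest of the 6 values in all 10.

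**Figure D1:**
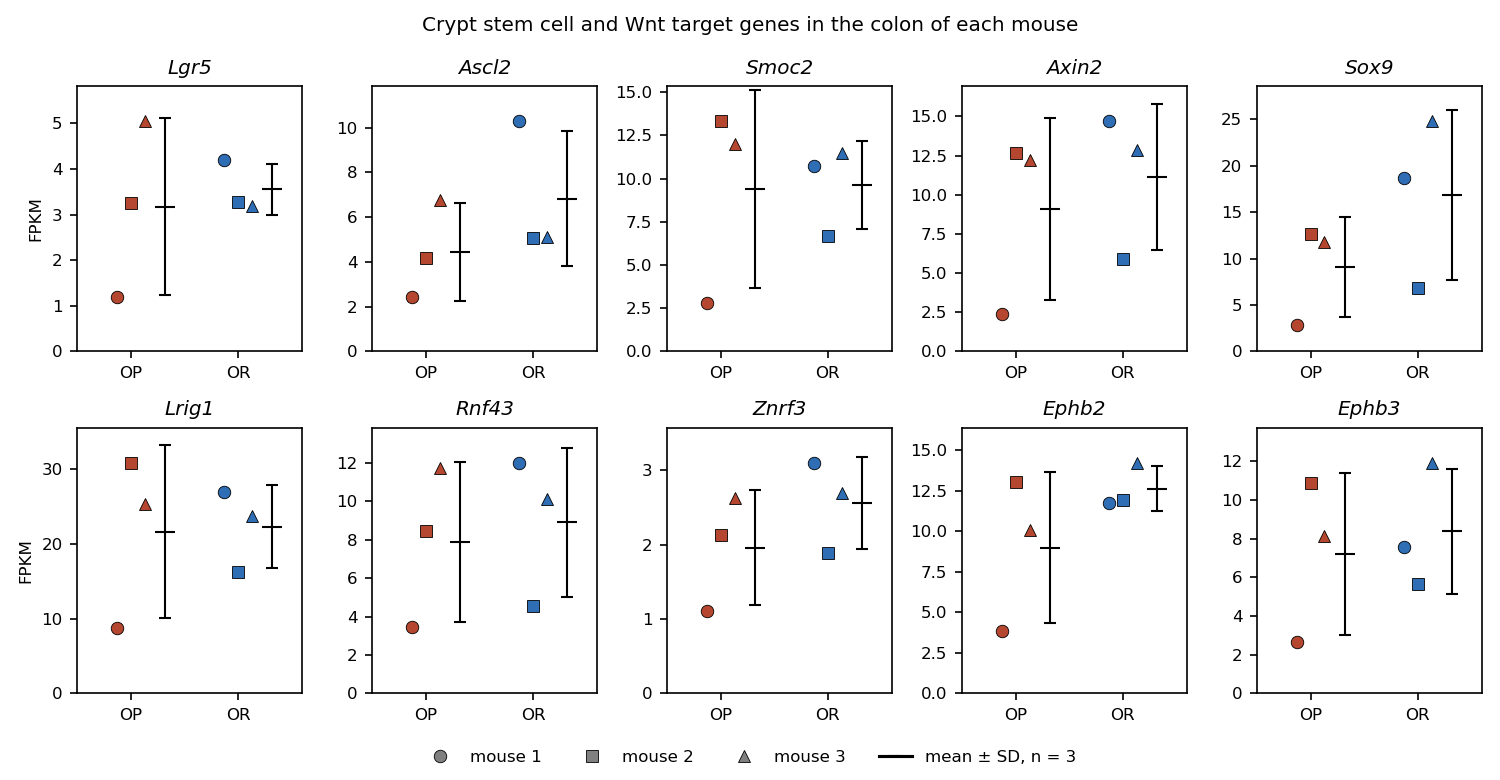
FPKM (y axes, from 0, one scale per gene) of the 10 genes in each OP mouse (red) and OR mouse (blue), with symbols for mouse 1, 2 and 3 and black bars for the mean ± SD of each group (n = 3). OP mouse 1, the red circle, is the lowest point in all 10 panels, and the groups overlap in each.

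*Lgr5* encodes an R-spondin receptor and is the classical marker of the cycling crypt base stem cell. It had 1.19, 3.26 and 5.06 FPKM in OP mice 1, 2 and 3 and 4.19, 3.28 and 3.19 FPKM in OR mice 1, 2 and 3. The highest and the lowest of the 6 values were both from OP mice, and the OR mice lay between them. The group means were 3.17 ± 1.94 FPKM (SD, n = 3) in OP and 3.55 ± 0.553 FPKM (SD, n = 3) in OR mice. The log2 fold change OP/OR was -0.24 (standard error 0.36, q = 0.951 by limma-trend), with a 95% interval from -1.09 to 0.61.

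*Ascl2* encodes a basic helix-loop-helix transcription factor that Wnt signalling induces and that maintains the stem cell state. OP mice 1, 2 and 3 had 2.43, 4.16 and 6.76 FPKM, against 10.31, 5.07 and 5.11 FPKM for OR mice 1, 2 and 3. OR mouse 1 was the highest, and OP mouse 3 was above OR mice 2 and 3. The log2 fold change was -0.54 (standard error 0.37, q = 0.945 by limma-trend).

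*Smoc2* encodes a secreted calcium-binding matrix protein found in the same cells. It had 2.82, 13.35 and 11.99 FPKM in OP mice, against 10.71, 6.69 and 11.48 FPKM in OR mice. OP mice 2 and 3 were above all 3 OR mice, and OP mouse 1 was below all of them. The group means were 9.39 ± 5.73 FPKM in OP and 9.63 ± 2.57 FPKM in OR mice (SD, n = 3 each). Without OP mouse 1 the log2 fold change moved from -0.22 (95% interval -1.40 to 0.96) to 0.39 (-0.20 to 0.99), with an unadjusted limma-trend p of 0.158.

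*Lrig1* encodes a membrane protein that restrains ERBB receptors and marks a broader group of crypt base cells. It was the most abundant of the 10 genes in every mouse but OR mouse 3. The values were 8.70, 30.81 and 25.31 FPKM in OP mice, against 26.90, 16.21 and 23.72 FPKM in OR mice, and OP mouse 2 was the highest. The log2 fold change was -0.18 with all mice (standard error 0.44, q = 0.962 by limma-trend) and 0.34 without OP mouse 1 (standard error 0.24).

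*Axin2*, *Rnf43* and *Znrf3* are feedback inhibitors that Wnt signalling induces against itself. *Axin2* encodes a scaffold of the complex that marks β-catenin for destruction. It had 2.41, 12.68 and 12.21 FPKM in OP mice, against 14.73, 5.88 and 12.84 FPKM in OR mice. OP mouse 1 and OR mouse 2 were the low animals, one in each group, and the other 4 mice lay between 12.21 and 14.73 FPKM. The mean of OP mice 2 and 3 was 5.16 times the value in OP mouse 1, the widest such gap among the 10 genes. The log2 fold change was -0.43 with a 95% interval from -1.78 to 0.92.

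*Rnf43* had 3.47, 8.44 and 11.72 FPKM in OP mice, against 12.02, 4.56 and 10.13 FPKM in OR mice, and *Znrf3*, which encodes its close relative, had 1.11, 2.13 and 2.63 FPKM in OP mice, against 3.10, 1.89 and 2.69 FPKM in OR mice. In both ligase genes OP mouse 1 was lowest, OR mouse 2 second lowest and OR mouse 1 highest. *Znrf3* was the least abundant of the 10 genes in each of the 6 mice, and the level of *Rnf43* was between 2.41 and 4.46 times that of *Znrf3* in the same mouse. The log2 fold changes were -0.20 (standard error 0.46) for *Rnf43* and -0.29 (standard error 0.26) for *Znrf3*.

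*Sox9* encodes a transcription factor of crypt progenitors, which is also present in some secretory cells. It had the lowest log2 fold change of the 10 genes. The values were 2.86, 12.61 and 11.82 FPKM in OP mice, against 18.73, 6.88 and 24.87 FPKM in OR mice. OR mice 1 and 3 were above all OP mice, whereas OR mouse 2 was below OP mice 2 and 3. The mean was 9.10 ± 5.42 FPKM (SD, n = 3) in OP and 16.8 ± 9.14 FPKM (SD, n = 3) in OR mice, and the log2 fold change was -0.86 (standard error 0.60, q = 0.945 by limma-trend). Without OP mouse 1 it was -0.27 (95% interval -1.48 to 0.94). The level of *Sox9* was between 2.10 times (OR mouse 2) and 7.80 times (OR mouse 3) that of *Lgr5*.

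*Ephb2* and *Ephb3* encode receptor tyrosine kinases that Wnt signalling induces and that sort cells along the crypt by contact with ephrin-B ligands. *Ephb2* had 3.87, 13.04 and 10.10 FPKM in OP mice, against 11.77, 11.92 and 14.25 FPKM in OR mice. The OR mice, at 12.6 ± 1.39 FPKM (SD, n = 3), had the smallest coefficient of variation of any group in the 10 genes, and only OP mouse 2 lay inside their range. *Ephb3* had 2.66, 10.90 and 8.12 FPKM in OP mice, against 7.58, 5.64 and 11.94 FPKM in OR mice, and here OP mice 2 and 3 were both within the OR range. The log2 fold changes were -0.58 (standard error 0.37, 95% interval -1.45 to 0.30) for *Ephb2* and -0.30 (standard error 0.46) for *Ephb3*. *Ephb2* had the smallest unadjusted limma-trend p of the 10 genes, 0.166.

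The mean FPKM of the groups was also compared gene by gene with an exact permutation test (two-sided), whose p lay between 0.3 and 1 and with 3 animals a group cannot go below 0.1. All 10 log2 fold changes were below 0, with a median of -0.29, but 70.1% of all genes tested were also below 0, with a median of -0.10. Median-of-ratios scaling moved the median of all genes to 0.01 and that of the 10 genes to -0.20, and all 10 stayed below 0. Without OP mouse 1, 6 of the 10 genes had a log2 fold change above 0 and 4 below, the median was 0.19, and 52.6% of all genes were below 0. The 4 below 0 were then *Ascl2* (-0.24), *Sox9* (-0.27), *Znrf3* (-0.06) and *Ephb2* (-0.12), each nearer 0 than with all mice. The 6 above 0 were *Lgr5* (0.16), *Smoc2* (0.39), *Axin2* (0.23), *Lrig1* (0.34), *Rnf43* (0.24) and *Ephb3* (0.21). Without OP mouse 1, 0 of the 10 genes had an unadjusted p below 0.05 in limma-trend, against 3.01% of all genes. Of the 10, *Smoc2* alone then had groups that did not overlap, which with 2 mice against 3 was the case for 13.6% of all genes. With all 6 mice the 95% interval of each of the 10 log2 fold changes included 0, and the intervals reached from -2.26 (*Sox9*) to 0.96 (*Smoc2*).

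**Figure D2:**
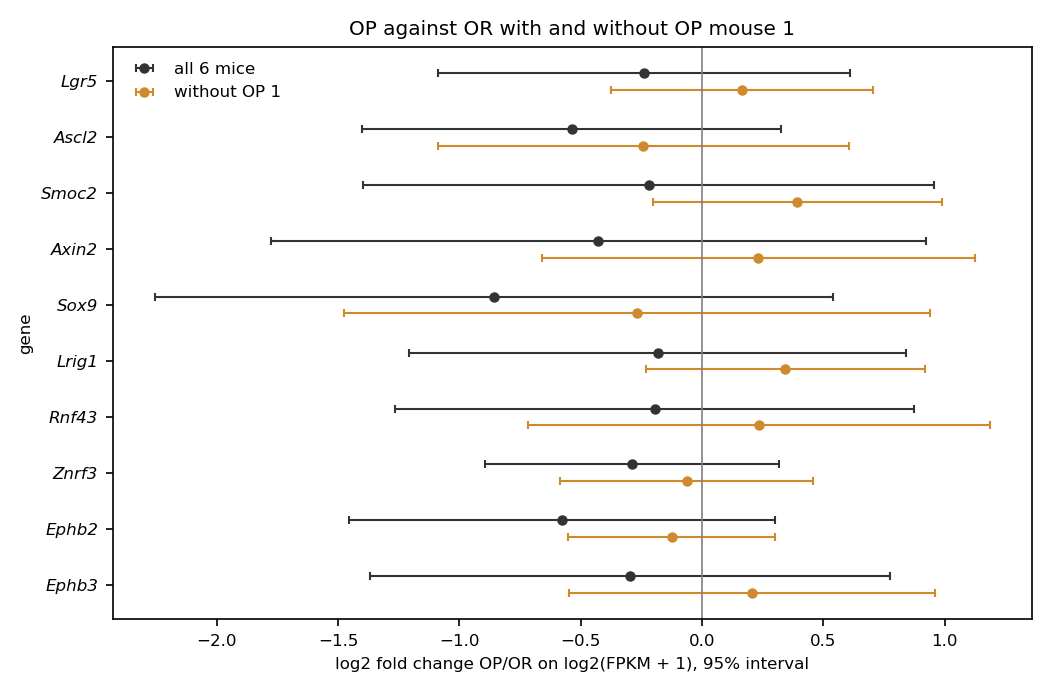
Log2 fold change OP/OR on the log2(FPKM + 1) scale (x axis) for each gene (y axis), as limma-trend estimate with 95% interval, for all 6 mice (dark) and without OP mouse 1 (orange). Every interval includes 0, and 6 of the 10 estimates move from below to above 0 when OP mouse 1 is left out.

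By mean FPKM over the 6 mice the order was *Lrig1* (21.9), *Sox9* (12.96), *Ephb2* (10.8), *Axin2* (10.1), *Smoc2* (9.51), *Rnf43* (8.39), *Ephb3* (7.81), *Ascl2* (5.64), *Lgr5* (3.36) and *Znrf3* (2.26). Neighbours in this order overlapped in their ranges over the 6 mice. Within a mouse only the lower end held: *Lgr5* was second lowest and *Znrf3* lowest in all 6, while *Lrig1* was highest in all but OR mouse 3. *Ephb2* had between 1.19 and 2.11 times the level of *Ephb3* in the same mouse.

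The 10 genes tended to be low in the same animals. Averaged over the 10, the deviation of log2(FPKM + 1) from each gene's own mean came to -1.13, 0.26 and 0.30 for OP mice 1, 2 and 3 and to 0.45, -0.26 and 0.39 for OR mice 1, 2 and 3. OP mouse 1 was below the mean in 10 of 10 genes and OR mouse 2 in 8 of 10. OR mouse 2 came second lowest in 7 of the 10, the exceptions being *Lgr5*, *Ascl2* and *Ephb2*. The mean of OP mice 2 and 3 was between 2.14 times (*Znrf3*) and 5.16 times (*Axin2*) the level in OP mouse 1. In 6 of the 10 genes OP mouse 1 had less than 50% of the next lowest mouse, a gap found in 4.65% of all genes tested. After median-of-ratios scaling such a gap was left in 2 of the 10, *Lgr5* and *Axin2*, against 2.32% of all genes. OP mouse 1 was the lowest in all 10 genes after that scaling too, against 26.8% of all genes. In a bulk sample, fewer crypt base cells and less RNA of these genes per cell cannot be told apart.

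**Figure D3:**
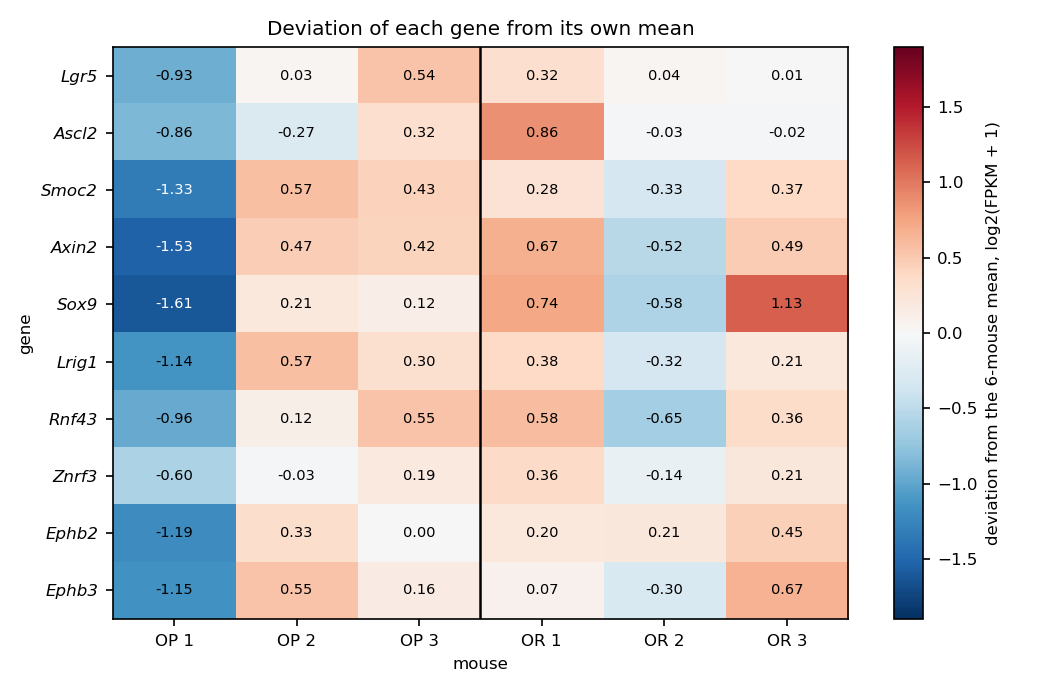
Deviation of each gene (rows) in each mouse (columns) from that gene's mean over the 6 mice, in log2(FPKM + 1), red above and blue below the mean. The column of OP mouse 1 is blue in all 10 rows and that of OR mouse 2 in 8 of 10.

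Other genes of the crypt base programme and the Wnt pathway were examined in 5 further lists. Of 21 other stem cell programme genes, 20 were tested. Of these, limma-trend placed 2 lower in OP mice at an unadjusted p below 0.05 and 0 higher, against 3.53% and 0.503% of all genes. *Igfbp4*, a secreted binding protein of insulin-like growth factors, had 11.72, 10.56 and 18.40 FPKM in OP mice, against 29.18, 23.75 and 31.90 FPKM in OR mice, a log2 fold change of -1.04 (standard error 0.23, q = 0.710 by limma-trend) and of -0.96 without OP mouse 1. *Fstl1*, a secreted glycoprotein, had 6.73 ± 0.877 FPKM (SD, n = 3) in OP and 11.3 ± 0.986 FPKM (SD, n = 3) in OR mice, with a log2 fold change of -0.67 (standard error 0.17, q = 0.798 by limma-trend) and -0.57 without OP mouse 1. In both genes every OP mouse was below every OR mouse, and neither passed the q-value threshold. They were the 2 of the 20 whose groups did not overlap, against 8.44% of all genes. Fibroblast markers were also lower in OP mice, 9 of 12 at an unadjusted p below 0.05, and their part in these genes was not tested. The median log2 fold change of the list was -0.38, and -0.11 without OP mouse 1.

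OP mouse 1 was the lowest mouse in 15 of those 20 genes, against 54.1% of all genes tested, and in 9 of the 20 after median-of-ratios scaling, against 26.8%. *Slc12a2*, a chloride cotransporter of crypt base cells named here after its values were seen, was at 10.56 FPKM in OP mouse 1 and between 33.24 and 62.85 FPKM in the other mice. *Prom1*, a membrane glycoprotein and the most abundant gene of the list, went the other way, with 341 FPKM in OP mouse 1 and 311 FPKM in OR mouse 2 against 151 to 196 FPKM in the others. *Reg4*, a secreted lectin, was at 942 FPKM in OR mouse 2 and 111 FPKM in OP mouse 1 and between 16.1 and 26.7 FPKM in the other 4. *Olfm4*, a stem cell marker of the small intestine that was also named after its values were seen, did not pass the filter and was highest at 0.25 FPKM.

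Of 14 other Wnt target genes, 13 were in the file and 10 were tested. Of those tested, 0 had an unadjusted p below 0.05 in limma-trend in either direction. The median log2 fold change of the list was -0.41, and -0.34 without OP mouse 1. OP mouse 1 was the lowest mouse in 6 of those tested, against 54.1% of all genes. After median-of-ratios scaling it was also lowest in 6, against 26.8% of all genes. In 2 the groups did not overlap, against 8.44% of all genes. These were *Nkd1* and *Apcdd1*, named after their values were seen, with every OP mouse below every OR mouse. *Myc*, a growth-promoting transcription factor, had 6.60, 21.80 and 15.60 FPKM in OP mice, against 26.34, 15.83 and 32.35 FPKM in OR mice, with a log2 fold change of -0.81 (standard error 0.43, q = 0.945 by limma-trend) and of -0.35 without OP mouse 1. *Ccnd1*, the G1 cyclin, had 12.87 FPKM in OP mouse 1 and between 30.70 and 39.09 FPKM in the other 5 mice. *Wif1*, a secreted Wnt inhibitor, ranged from 0.36 to 4.28 FPKM within the OP mice at a log2 fold change of 0.00, standard error 0.52.

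Of 31 receptors and transducers of the Wnt signal, 30 were tested. *Fzd4*, a Frizzled receptor, was lower in OP mice at an unadjusted p below 0.05, with 1.67 ± 0.326 FPKM against 2.78 ± 0.477 FPKM (SD, n = 3 each), no overlap and a log2 fold change of -0.50 (standard error 0.19, q = 0.945 by limma-trend). It was the 1 gene of the 30 at that level, against 3.53% of all genes lower, and the 1 without overlap, against 8.44%. Without OP mouse 1 the count at that level was 0 by limma-trend. *Ctnnb1*, which encodes β-catenin, had 398 ± 48.7 FPKM (SD, n = 3) in OP and 352 ± 30.2 FPKM (SD, n = 3) in OR mice. *Tcf7l2*, the main TCF factor of the gut epithelium, had 21.5 ± 4.74 and 15.9 ± 3.85 FPKM (SD, n = 3 each), and *Bcl9l*, a β-catenin coactivator, 4.74 ± 2.22 and 7.35 ± 2.37 FPKM (SD, n = 3 each), with overlapping groups in each. OP mouse 1 was the lowest mouse in 19 of the 30 genes, against 54.1% of all genes, and in 10 after median-of-ratios scaling, against 26.8%. It was the highest in 3 of the 30, among them *Ctnnb1* and *Tcf7l2*, and in 1362 of the 13520 genes tested.

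The partners of the Eph receptors and of *Lrig1* gave 0 genes at an unadjusted p below 0.05 in limma-trend, of 5 tested in either list. The ephrin-B ligand *Efnb1* had 67.4 ± 5.33 FPKM (SD, n = 3) in OP and 65.1 ± 8.59 FPKM (SD, n = 3) in OR mice, and *Efnb2* 39.7 ± 9.47 and 36.7 ± 5.80 FPKM (SD, n = 3 each). The receptor *Ephb4* had 9.23 FPKM in OP mouse 1 and 18.46 to 30.95 FPKM in the other mice. *Erbb3*, a receptor that binds neuregulins, had 171, 76.4 and 167 FPKM in OP mice, against 117, 128 and 72.7 FPKM in OR mice, and *Erbb2*, its signalling partner, 101, 51.3 and 111 FPKM and 76.8, 77.5 and 44.9 FPKM. OP mouse 2 and OR mouse 3 were the low animals for both, an order that differs from that of *Lrig1*. *Lrig3*, a relative of *Lrig1*, was lowest in OP mouse 1 at 6.69 FPKM.

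Cell cycle and secretory markers were also low in OP mouse 1. Cell cycle markers, 17 genes, had a mean deviation of -0.73 in OP mouse 1 and between -0.20 and 0.42 in the others, and OP mouse 1 was the lowest in 16 of 17, against 54.1% of all genes, and in 11 of 17 after median-of-ratios scaling, against 26.8%. At an unadjusted limma-trend p below 0.05 the count was 0 of 17. Goblet and other secretory cell markers, 10 genes, deviated by -1.82 in OP mouse 1 and by 1.13 in OR mouse 3, with summed levels of 521 to 2622 FPKM in OP and 1202 to 4208 FPKM in OR mice. *Pcna*, a replication clamp and the most abundant of the cell cycle genes, had 75.9 FPKM in OP mouse 1 and 80.7 to 121 FPKM in the others. *Agr2*, a protein-folding factor of mucus cells, had 41.2 FPKM in OP mouse 1 and 261 FPKM or more in the others. Of these markers *Tff3*, a goblet cell peptide, was lower in OP mice at an unadjusted p below 0.05 (log2 fold change -1.06, standard error 0.40, q = 0.945 by limma-trend), with overlapping groups. Without OP mouse 1 its log2 fold change was -0.97, and 0 of the 10 secretory markers were at that level by limma-trend.

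Absorptive colonocyte markers were on average highest in OP mouse 1. Their 12 genes deviated by 0.81 there, by 0.29 in OR mouse 2 and by 0.10 in OP mouse 2, with values below 0 in the other 3 mice. OP mouse 1 had the highest value in 6 of the 12, against 1362 of the 13520 genes tested, and the lowest value in 1. Their summed level was 26635 FPKM in OP mouse 1 and 24433 FPKM in OR mouse 2 and between 11387 and 12642 FPKM in the other 4 mice. *Car1* alone had 14584 FPKM in OP mouse 1 and 15723 FPKM in OR mouse 2, which was 2.43% and 2.64% of all FPKM of those libraries, against 1054 to 6339 FPKM elsewhere. Without *Car1* the summed level was 12051 FPKM in OP mouse 1, 10333 FPKM in OP mouse 2, 8710 FPKM in OR mouse 2 and 6303 to 7014 FPKM in the other 3, so that OR mouse 2 was below OP mouse 2. *Ceacam20*, a microvillus protein, was higher in OP mice at an unadjusted p below 0.05, with 98.2 ± 24.9 against 54.0 ± 9.64 FPKM (SD, n = 3 each), a log2 fold change of 0.84 (standard error 0.22, q = 0.805 by limma-trend) and no overlap, and a log2 fold change of 0.66 without OP mouse 1. General epithelial markers, 12 genes, moved less, with mean deviations between -0.12 and 0.16 and summed levels of 11660 to 14313 FPKM in OP and 11494 to 13758 FPKM in OR mice, and *Lgals4*, a galectin, was the most abundant at 3033 to 4428 FPKM. The part of the colonocyte and secretory markers in the level of the 10 genes was not tested.

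Markers of non-epithelial cells followed another order of mice. Fibroblast, blood endothelial and macrophage markers had 9 of 12, 8 of 10 and 9 of 10 genes lower in OP mice at an unadjusted p below 0.05 by limma-trend. The share of all genes lower at that level was 3.53%. Of these markers 0 passed the study's thresholds by limma-trend. The paper, which used DESeq2, reported *Col3a1* and other genes of the fibroblast list as significantly higher in OR mice. Without OP mouse 1 the counts were 7, 4 and 5, against 3.01% of all genes in either direction. The summed levels were 142 to 235 FPKM in OP against 340 to 601 FPKM in OR mice for fibroblasts, 19.5 to 31.4 against 34.6 to 58.8 FPKM for blood endothelium and 81.5 to 256 against 181 to 248 FPKM for macrophages, with no gene of these lists at 0 in any mouse. *Dcn*, a matrix proteoglycan, was the fibroblast gene with the highest level and was at -2.03 on the log2 fold change scale, with the collagen genes *Col3a1*, *Col6a1*, *Col6a2* and *Col1a2* between -0.93 and -0.84. Of the endothelial genes *Pecam1*, *Cdh5*, *Tek*, *Eng* and *Emcn* lay between -0.97 and -0.72, and of the macrophage genes *Cd163*, *Mrc1*, *C1qb*, *Adgre1* and *C1qa* between -1.03 and -0.88, while the most abundant, *Lyz2*, was at -0.10 (standard error 0.40). Their lowest mean deviations were in OP mouse 2 (-0.77, -0.55 and -0.88, with -0.54 for endothelium in OP mouse 1), in which the 10 genes had a mean deviation of 0.26. Smooth muscle markers were highest in OR mouse 1 at 4345 FPKM in sum, against 2002 to 2909 FPKM in the others. *Myl9*, a myosin light chain, was the most abundant of them. Enteric glia markers, 7 genes tested, gave 0 at an unadjusted limma-trend p below 0.05, as did the 10 smooth muscle genes. The glia sums, 83.4 to 179 FPKM in OP and 83.8 to 139 FPKM in OR mice, were mostly *Erbb3*, which is also in the ERBB list. Of the 7 glia genes, 6 were lower in OP mice and *Erbb3* was higher, against 70.1% of all genes lower. Small intestine markers, 6 genes tested, deviated by -0.80, -0.88 and 0.98 in OP mice 1, 2 and 3. In OR mice 1, 2 and 3 they deviated by 0.85, -0.52 and 0.37. *Slc5a1*, a glucose transporter, was the most abundant at 25.6 to 61.5 FPKM. The part of the stretch of gut sampled in the level of the 10 genes was not tested.

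**Figure D4:**
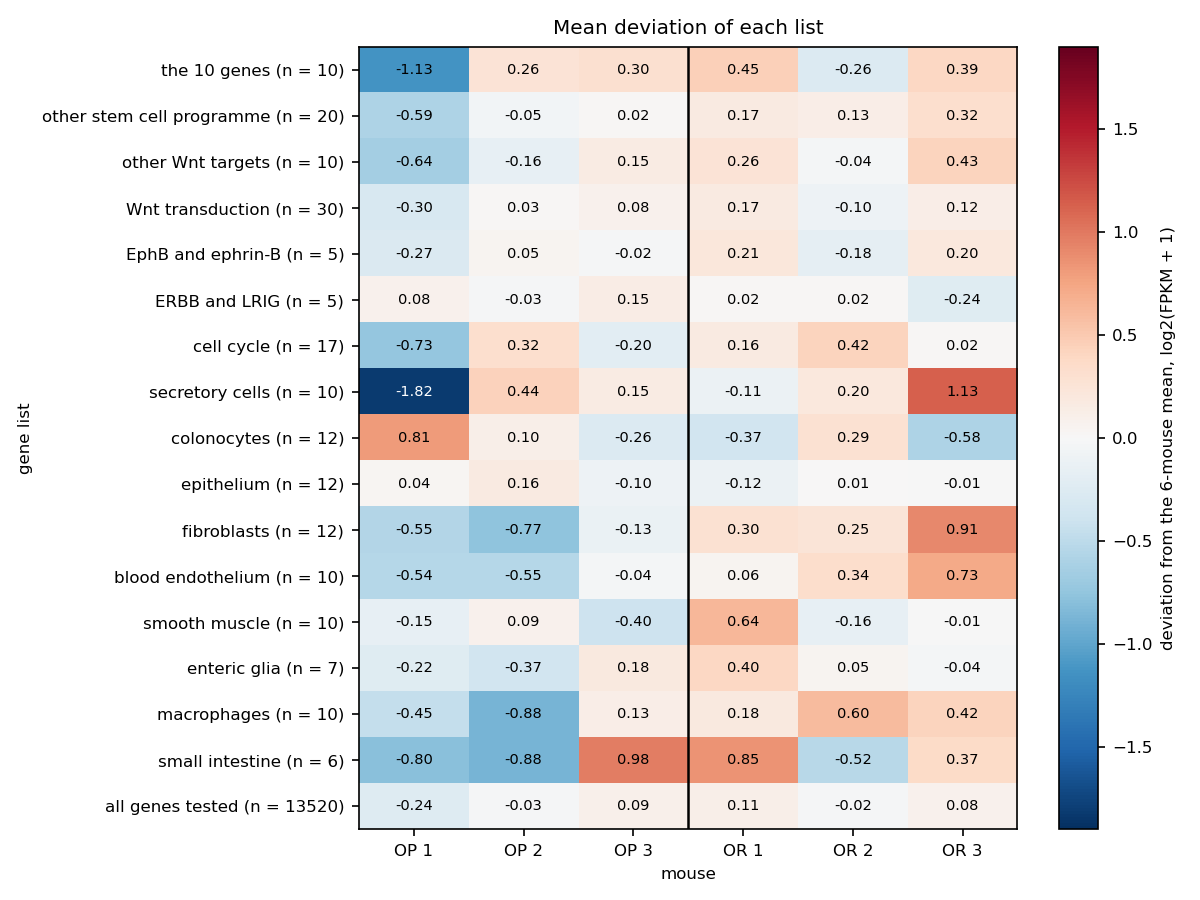
Mean deviation from the 6-mouse mean in log2(FPKM + 1) for each gene list (rows, with the number of genes tested) in each mouse (columns), red above and blue below. The 10 genes are lowest in OP mouse 1 (-1.13), as are secretory (-1.82) and cell cycle markers (-0.73), colonocyte markers are highest there (0.81), and fibroblast, blood endothelial and macrophage markers are lowest in OP mouse 2.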

How the data were processed

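Colon RNA of 3 OP and 3 OR mice was measured by RNA sequencing. Per the labels and methods, mRNA was enriched, strand-specific libraries were run on DNBSEQ, and SOAPnuke, Bowtie2 and RSEM took the reads to gene values, with versions that differ between sources; the submitters' processing notes also name HISAT2 2.0.4 and GRCm39. The deposited values are the authors' FPKM to 2 decimals, 1 column per mouse; all columns were used. Read totals were not recovered, since 7.14% of values above 0 lie below 0.1, where rounding hides single reads. Depth is therefore unknown.

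Genes at 0.5 FPKM or more in 3 or more mice were compared on log2(FPKM + 1) by limma-trend (R 4.3.3, limma 3.58.1), with group as the only term and Benjamini-Hochberg adjustment over all genes tested. A fold change on this scale understates that of low genes. Count tests need read counts and were not run. Exact permutation tests used SciPy 1.17.1, and the fit was tested on simulated data. The replicates are separate mice.

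The genes, the 15 further lists and the tests were chosen with earlier results of these data known. Named from the lists were genes with an unadjusted p below 0.05 (at most 5 per list), the most abundant and, for pathway lists, the extremes of log2 fold change. Genes named outside this rule are marked in the text as named or picked after their values were seen. Alternatives were other scalings, filters, weights and pseudocount, limma without trend, the replicate number as a block and each mouse left out; median-of-ratios scaling without OP mouse 1 was added after seeing the data.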

Additional observations from a re-analysis of the deposited data

How the results depend on the processing

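The count of genes past the study's thresholds was 0 of 10 under every alternative run, including no fold change threshold. At an unadjusted limma-trend p below 0.05 the count was 0, and 0 to 1 with each mouse left out, namely *Ephb2* (log2 fold change -0.89) without OP replicate 2 and *Sox9* (-1.37) without OR replicate 2. The share of all genes at that level was then 5.80% and 4.83%. The lowest limma-trend q-values (Benjamini-Hochberg) were then 0.772 and 0.851. The count of genes without overlap was 0 and ranged from 0 to 3 with each mouse left out: *Smoc2* without OP replicate 1, *Ephb2* without OP replicate 2, *Ascl2* without OP replicate 3, and *Axin2*, *Sox9* and *Znrf3* without OR replicate 2. Of all genes tested 13.6%, 21.2%, 27.6% and 24.9% had no overlap in these settings. The median log2 fold change of -0.29 ranged from -0.55 to 0.20 over all alternatives. With sample weights *Smoc2* was at 0.037 and *Lrig1* at 0.060. With each mouse left out the log2 fold change ranged from -0.57 to 0.165 for *Lgr5*, from -0.56 to 0.39 for *Smoc2*, from -0.79 to 0.23 for *Axin2*, from -0.51 to 0.34 for *Lrig1*, from -0.57 to 0.24 for *Rnf43* and from -0.64 to 0.21 for *Ephb3*. Each upper end came without OP replicate 1, and *Rnf43* was also above 0 without OR replicate 1 (0.05). With median-of-ratios scaling and without OP replicate 1 these 6 genes were at 0.17, 0.41, 0.25, 0.36, 0.25 and 0.22, and 1 gene had groups without overlap. With the replicate block, the paired fit, the median was -0.29 and the smallest unadjusted p 0.111, and no call changed; same-numbered mice are different animals, with a mean correlation of deviations of -0.08. The count of all genes past the thresholds was 3, and from 0 to 5 under the alternatives.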
